A study of Mus musculus with 3 samples.

Results

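The genes described here are 39 mouse genes of meiosis and of germ cells. They comprise meiotic chromosome and recombination genes, regulators of early germ cells and testis-specific genes that are often silenced by promoter methylation. Members were found on the arrays by the gene name given for a probe, or by the current symbol reached through its accession or a synonym. Of the 39 genes, 38 had at least 1 probe and 33 could be tested, among 17709 genes tested out of 27670 gene names on the array. The exception without a probe was Rpl10l, a testis-expressed copy of a ribosomal protein gene.

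RNA of mouse embryonic stem (ES) cells was measured on 3 Agilent arrays, each carrying the Cy3-labelled RNA of 1 sample. The groups were 2 samples with the genotype Tet1 KO, named KO 4 and KO 22, and 1 sample with the genotype Tet1 WT. Tet1 is an enzyme that oxidises 5-methylcytosine in DNA. All 3 samples were V6.5 cells of a mixed 129 and C57BL6 background, kept on irradiated feeder cells with LIF (leukaemia inhibitory factor) and preplated before RNA was extracted. The labels do not say whether KO 4 and KO 22 are separate clones or cultures, and the short design text names mice. All p-values below therefore measure only the spread between these 2 arrays, which may be technical, and wild type has no replicate.

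In meiosis, homologous chromosomes are held by meiotic cohesins, aligned along protein axes, joined by the synaptonemal complex and recombined after programmed DNA breaks. Most genes for these steps are silent in somatic cells, where many of their CpG-rich promoters carry DNA methylation. In ES cells, a complex that contains MGA, MAX, E2F6 and PCGF6 is known to repress a set of germ cell genes through E-box and E2F-type motifs.

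Promoter windows of 300 bases, from 250 before to 50 after the annotated start, were available for 34 of the 39 genes in RefSeq (GRCm38.p6). Shown are the 5 members that were at least 2-fold lower on both knockout arrays, Hormad1 as the next by size of difference, and Stk31 as a member with almost no difference. Capitals mark CpG dinucleotides, the sites of DNA methylation, and each sequence runs 5′ to 3′ on the strand of its gene.
Dpep3, chr8:105979370-105979669, minus strand: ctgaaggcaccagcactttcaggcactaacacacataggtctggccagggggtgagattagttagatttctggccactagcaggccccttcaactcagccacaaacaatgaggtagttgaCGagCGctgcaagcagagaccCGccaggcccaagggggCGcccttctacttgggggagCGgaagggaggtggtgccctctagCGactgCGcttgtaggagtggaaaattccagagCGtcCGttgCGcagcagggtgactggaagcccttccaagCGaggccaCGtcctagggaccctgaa
Slc25a31, chr3:40708621-40708920, plus strand: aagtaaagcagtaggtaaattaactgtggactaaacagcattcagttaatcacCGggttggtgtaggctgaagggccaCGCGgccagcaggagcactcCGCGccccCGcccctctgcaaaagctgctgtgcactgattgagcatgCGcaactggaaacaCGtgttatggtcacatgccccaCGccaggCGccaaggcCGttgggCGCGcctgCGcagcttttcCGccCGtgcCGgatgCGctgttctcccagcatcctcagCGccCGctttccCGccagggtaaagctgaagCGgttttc
Smc1b, chr15:85131908-85132207, minus strand: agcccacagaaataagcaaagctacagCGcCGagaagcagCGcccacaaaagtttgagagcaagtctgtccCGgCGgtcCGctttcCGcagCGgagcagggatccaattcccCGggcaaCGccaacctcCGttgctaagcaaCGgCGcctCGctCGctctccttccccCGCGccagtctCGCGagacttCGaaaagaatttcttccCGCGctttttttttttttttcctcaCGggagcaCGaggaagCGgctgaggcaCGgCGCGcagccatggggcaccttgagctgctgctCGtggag
Sohlh2, chr3:55181794-55182093, plus strand: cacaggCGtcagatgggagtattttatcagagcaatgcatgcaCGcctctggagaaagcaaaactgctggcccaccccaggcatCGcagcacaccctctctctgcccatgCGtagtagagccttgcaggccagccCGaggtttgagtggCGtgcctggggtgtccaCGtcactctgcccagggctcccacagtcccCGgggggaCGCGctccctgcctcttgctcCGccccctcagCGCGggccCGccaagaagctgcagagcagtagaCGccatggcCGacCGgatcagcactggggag
Syce1, chr7:140787805-140788104, minus strand: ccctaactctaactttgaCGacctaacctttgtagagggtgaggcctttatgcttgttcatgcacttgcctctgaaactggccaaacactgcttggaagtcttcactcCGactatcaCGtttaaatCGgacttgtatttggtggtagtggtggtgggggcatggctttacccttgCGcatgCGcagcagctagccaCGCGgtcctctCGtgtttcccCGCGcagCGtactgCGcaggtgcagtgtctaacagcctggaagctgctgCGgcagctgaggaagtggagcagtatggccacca
Hormad1, chr3:95559427-95559726, plus strand: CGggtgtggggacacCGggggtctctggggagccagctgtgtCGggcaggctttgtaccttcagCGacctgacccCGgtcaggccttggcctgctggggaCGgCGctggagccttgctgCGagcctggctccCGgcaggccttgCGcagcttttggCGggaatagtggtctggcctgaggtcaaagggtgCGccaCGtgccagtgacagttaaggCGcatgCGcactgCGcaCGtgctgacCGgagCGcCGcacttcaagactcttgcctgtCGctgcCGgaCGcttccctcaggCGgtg
Stk31, chr6:49395289-49395588, plus strand: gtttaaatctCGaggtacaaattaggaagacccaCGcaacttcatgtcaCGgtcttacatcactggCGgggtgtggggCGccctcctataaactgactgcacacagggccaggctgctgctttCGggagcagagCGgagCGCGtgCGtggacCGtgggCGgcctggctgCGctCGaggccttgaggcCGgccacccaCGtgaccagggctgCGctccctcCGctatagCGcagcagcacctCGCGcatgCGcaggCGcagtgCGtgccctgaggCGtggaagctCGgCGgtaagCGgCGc

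These windows held from 12 CpG (Dpep3) to 29 CpG (Smc1b and Stk31), with 14 in Syce1, 17 in Sohlh2, 22 in Slc25a31 and 24 in Hormad1. Over the 34 members, the richest window of a gene had a median of 18.5 CpG, against 8.0 over the 27025 genes with a window. At least 15 CpG were present in 23 members (67.6%) and in 37.1% of all genes.

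The E-box CACGTG, a palindrome that MGA and MAX can bind, occurred in 9 members (26.5%), against 8.09% of all genes. The E2F-type motif TCCCGC, searched on both strands, occurred in 15 members (44.1%) against 22.0%. Among genes with at least 15 CpG the E-box was found in 9 of 23 members (39.1%) against 12.0%, and the E2F-type motif in 60.9% against 47.2%. These matches are descriptions of letters in a window and not of bound sites, and in 0 of the 41 member windows did a match of one motif overlap a match of the other.

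Positions are those of a match's first base, counted from the start site, with minus for upstream. Of the windows shown, Hormad1 held 2 E-boxes, at -57 and -20, and 1 E2F-type motif at -95. Slc25a31 held an E-box at -93 and an E2F-type motif at 20. The window of Smc1b had an E2F-type motif at -47 and no E-box, while Stk31 had an E-box at -55 and no E2F-type motif. Neither motif was found in these windows of Dpep3, Sohlh2 or Syce1. The 5 members at least 2-fold lower had a median of 17.0 CpG, with the E-box in 1 and the E2F-type motif in 2. The other 24 tested members with a window had a median of 20.5 CpG, with the E-box in 8 and the E2F-type motif in 12. The CpG counts of both sets overlapped, from 12 to 29 in the first and from 3 to 33 in the second.

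On the arrays, the scanner software flagged 62.2% to 62.8% of 43379 non-control spots as well above background, and 0 as saturated. The Tet1 probe read 213.8 on KO 4 and 195.4 on KO 22 against 720.9 on wild type, a difference of -1.94 on the log2 scale (limma adjusted p = 0.0529). Whether the probe lies within the deleted sequence was not stated in the labels. Y-linked RNA also differed: Eif2s3y read 17.3 and 19.8 on the knockout arrays against 842.0 on wild type. Genotype and this difference cannot be told apart, and no member lies on the Y chromosome. Of the tested members, 2 lie on the X chromosome (Taf7l and Tex11), and the bearing of this difference on the members was not tested. All 9 ES cell markers were well above background on each array, with a median difference of -0.04. They ran from -0.47 (Pou5f1 and Esrrb) to 0.40 (Klf4). Lower on both knockout arrays were 5 of the 9, against 45.5% of all genes, and 3 were higher on both, against 38.0%. The 11 fibroblast markers, listed because of the feeder cells, had summed intensities of 33420 on KO 4, 22490 on KO 22 and 15482 on wild type. Most of each sum came from Acta2 and Tagln. These read 10406 and 19585 on KO 4, 8718 and 12006 on KO 22, and 8855 and 5090 on wild type. The median difference of the 11 markers was 0.74 on KO 4 and -0.07 on KO 22, and their part in the results was not tested. The array is a bulk measurement, in which fewer cells of a type and less RNA per cell cannot be told apart.

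RNA of most members was measurable in all 3 samples. Of the 38 members with a probe, 31 were well above background on all 3 arrays. By the same rule 16405 of the 27670 gene names on the array passed. Sycp2 passed on KO 22 alone, and Tex11 on KO 22 and wild type. The remaining 5 were not well above background on any array: Nanos2, a translational regulator of male germ cells, Msh4, a recombination protein, and Tex13a, Wfdc15a and Magea4, which are expressed in testis. Those 5 were not tested.

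Differences are log2 of the processed intensity after each array was scaled to its 75th percentile, knockout minus wild type, so -1 is a 2-fold lower level. Errors are limma standard errors (n = 2 against 1). An error of 0.09 is the minimum set by the spread shared over all genes, not a precision measured for 1 gene. The differences of KO 4 and KO 22 share the single wild type array.

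Among the 33 tested members, 5 were at least 2-fold lower on both knockout arrays, which is 15.2%, against 1.56% of all genes tested. They were Dpep3, Slc25a31, Smc1b, Sohlh2 and Syce1. The members were chosen with earlier results of these data known, so the shares given here describe the list and are not a test. None of the 33 was at least 2-fold higher on both, against 1.45% of all genes. Differences of any size put 19 members lower on both arrays (57.6%), against 45.5% of all genes, and 10 higher on both, against 38.0%. The members' median difference was -0.24, against -0.03 for all genes, with -0.27 on KO 4 and -0.11 on KO 22. Within 0.5 of wild type were 23 members, and the share over all genes was not counted.

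No member passed limma's test over all genes at an adjusted p of 0.05 (0 lower and 0 higher), with 0.322% of all genes called lower and 0.0339% called higher. The lowest adjusted p of a member was 0.0855. At an unadjusted p under 0.05, 11 members were lower, against 15% of all genes, and 4 were higher, against 13.2%, so the higher count is near the background. When limma's variance was allowed to follow intensity, 9 members were called lower, against 10.7% of all genes, and 2 were called higher, against 8.31%. The lower calls were Dpep3, Slc25a31, Smc1b, Sohlh2, Syce1, Hormad1, Tex101, Stag3 and Mlh3, and the higher calls were Kit and Rec8. The calls of single members thus depended on the variance model, while the differences themselves were the same in both fits.

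**Figure D1:**
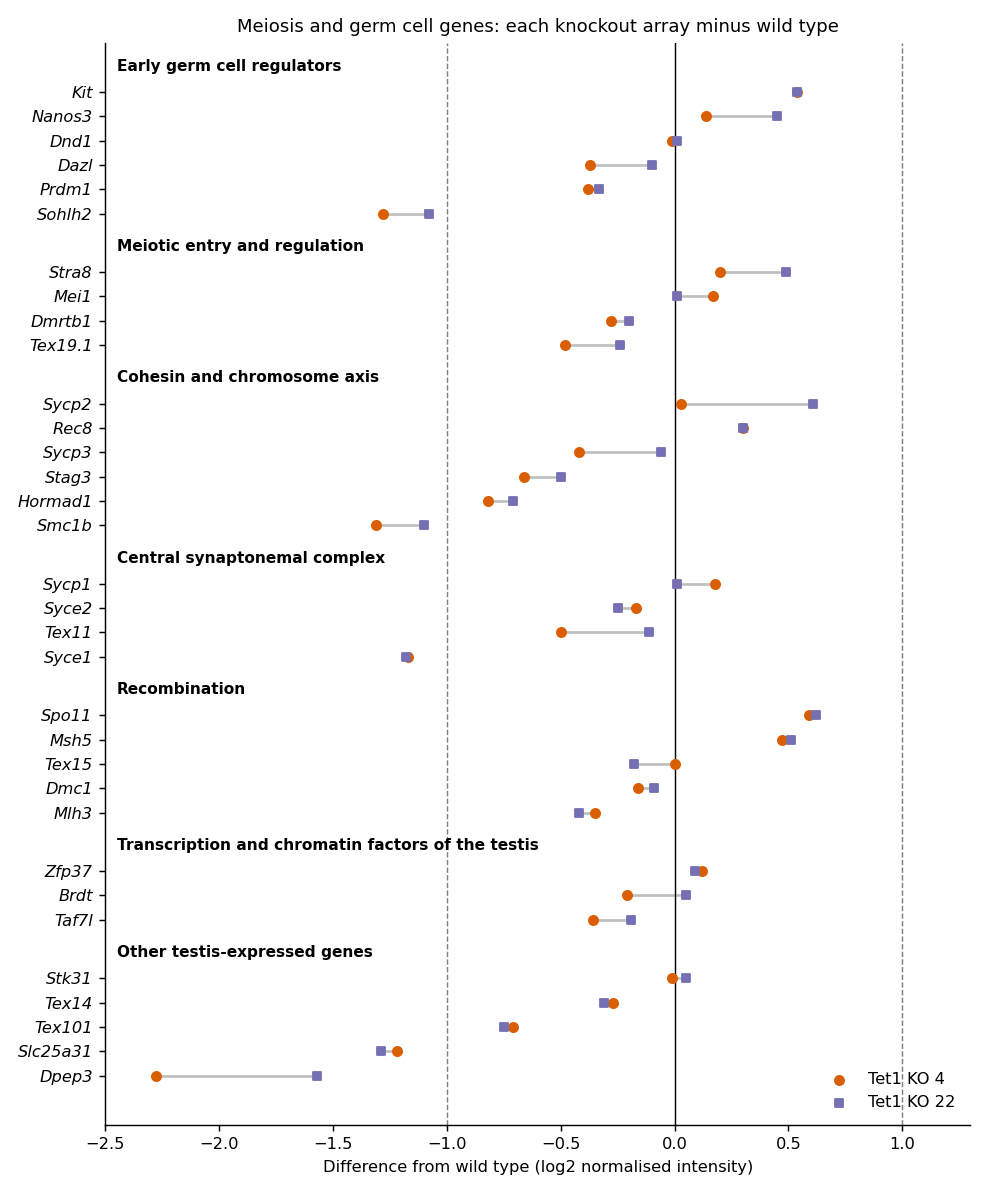
Difference from wild type (log2 normalised intensity, horizontal axis) of each of the 33 tested members, grouped by role, with a circle for KO 4 and a square for KO 22; dashed lines mark a 2-fold difference. Dpep3, Slc25a31, Smc1b, Sohlh2 and Syce1 lie beyond the line on the lower side on both arrays, and no member lies beyond it on the higher side.

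Early germ cell regulators lay on both sides of wild type. Sohlh2, a helix-loop-helix factor of spermatogonia and young oocytes, had processed intensities of 251.4 on KO 4, 258.6 on KO 22 and 529.0 on wild type. Both knockout arrays were clearly below wild type and close to each other, with differences of -1.28 and -1.08. The mean was -1.18 ± 0.13, a 2.26-fold lower level (limma adjusted p = 0.100, and 0.00515 with the intensity trend).

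Kit, the receptor for stem cell factor that germ cell precursors need, was spotted 10 times on each array. Its spots averaged 1730 ± 78.6 on KO 4, 1547 ± 41.2 on KO 22 and 1031 ± 31.8 on wild type (SD over 10 spots, a technical spread). Both knockout arrays were higher by 0.54, or 1.45-fold (limma adjusted p = 0.108, and 0.0111 with the trend). This was the only early regulator called in the higher direction.

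The other early regulators lay closer to wild type. Prdm1, the repressor that starts germ cell specification, read 164.1, 151.8 and 185.1 on KO 4, KO 22 and wild type, a difference of -0.36 ± 0.09 (limma adjusted p = 0.146). Dazl, an RNA-binding protein that licenses germ cell development, read 240.5, 260.9 and 270.5 (-0.24 ± 0.16), and its knockout arrays differed from each other by more than KO 22 differed from wild type. Dnd1, which protects germ cell RNAs, had the smallest difference, with -0.01 on KO 4 and 0.01 on KO 22. Nanos3, a regulator that keeps primordial germ cells alive, was dim at 28.7, 32.0 and 22.7 (0.29 ± 0.18, and -0.00 with normexp, another background correction). The normexp setting added an offset of 50 to each corrected intensity, which by arithmetic shrinks the log2 differences of dim probes.

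Of the 4 genes of meiotic entry and regulation, none passed either test. Stra8, the retinoic acid target needed to start meiosis, read 3624 on KO 4, 3992 on KO 22 and 2745 on wild type. Both knockout arrays were above wild type, but by unequal amounts of 0.20 and 0.49 (mean 0.35 ± 0.17, limma adjusted p = 0.291). Tex19.1, which limits retrotransposons in germ cells, was at 25262, 26926 and 30679 (-0.36 ± 0.15, limma adjusted p = 0.243). Dmrtb1, a factor of spermatogonia, differed by -0.24 ± 0.10. Mei1, needed for meiotic DNA breaks, differed by 0.09 ± 0.12, with 0.01 on KO 22.

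The meiotic cohesins and axis proteins held both lower and higher genes. Smc1b, the meiotic form of a cohesin core subunit, read 1063 on KO 4, 1102 on KO 22 and 2288 on wild type. Both knockout values were under the wild type value by a similar amount, -1.31 and -1.10. The mean was -1.21 ± 0.14, or 2.31-fold lower (limma adjusted p = 0.100, and 0.00381 with the trend). Stag3, another meiotic cohesin subunit, read 2336, 2343 and 3198, a difference of -0.58 ± 0.12 (limma adjusted p = 0.124, and 0.0142 with the trend). Rec8, the meiotic subunit that closes the cohesin ring, went the other way. It read 9450 and 8489 on the knockout arrays and 6657 on wild type, with 0.30 on both (± 0.09, limma adjusted p = 0.165, and 0.0367 with the trend). Of these 3 subunits of meiotic cohesin, Smc1b and Stag3 were therefore lower and Rec8 was higher.

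Hormad1, an axis protein that monitors chromosome pairing, read 153.3, 149.1 and 235.8. Its difference was -0.77 ± 0.10, a 1.70-fold lower level (limma adjusted p = 0.102, and 0.0137 with the trend). Hormad1 was the nearest member outside the 2-fold rule, at -0.82 and -0.71. Sycp3, a core of the chromosome axis, read 539.0, 619.1 and 625.6, so only KO 4 stood apart from wild type (-0.42, against -0.06 on KO 22). Sycp2, its partner, was near background, at 11.0, 14.8 and 9.37 (0.32 ± 0.30, and -0.01 with normexp).

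In the central part of the synaptonemal complex, Syce1 was lower, and Syce2 and Sycp1 were closer to wild type. Syce1, a protein of the central element, read 795.8 on KO 4, 713.1 on KO 22 and 1560 on wild type. Its differences, -1.17 and -1.18, were almost equal, giving -1.18 ± 0.09 or 2.26-fold lower (limma adjusted p = 0.0855, and 0.00242 with the trend). Syce2, another protein of the central element, read 19969, 17019 and 19528 (-0.21 ± 0.10). Sycp1, the transverse filament that links both axes, read 43.4, 34.6 and 33.3 (0.09 ± 0.12). Tex11, an X-linked meiosis gene, read 9.43, 11.1 and 11.6, at the edge of detection.

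Recombination genes included none at 2-fold. Spo11, which cuts DNA to start recombination, read 22.9, 21.0 and 13.2, with 0.60 ± 0.09 (limma adjusted p = 0.103, and 0.184 with the trend). Msh5, which stabilises crossover intermediates, was higher on its brightest probe, at 44.7, 41.5 and 28.1 (0.49 ± 0.09, limma adjusted p = 0.115). Both are dim, and neither was called in either fit. With normexp the difference was 0.03 for Spo11 and 0.11 for Msh5, and with the series matrix Spo11 differed by 0.34. The size of both thus depends on how background is handled and, with normexp, on its offset of 50. With the mean of its probes Msh5 differed by 0.23. Mlh3, which acts in crossover formation, read 347.8, 298.2 and 385.0 (-0.38 ± 0.09, limma adjusted p = 0.142, and 0.0472 with the trend). Dmc1, the meiotic strand exchange protein, and Tex15, needed for break repair in spermatocytes, were near wild type, at -0.13 ± 0.09 and -0.09 ± 0.13.

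Factors of testis transcription and chromatin were close to wild type. Taf7l, an X-linked subunit of a testis form of TFIID, differed by -0.27 ± 0.12. Zfp37, a zinc finger gene, differed by 0.11 ± 0.09. Brdt, a testis bromodomain protein, differed by -0.08 ± 0.15, with its 2 knockout arrays on opposite sides of wild type.

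The other testis-expressed genes held the largest difference of the group. Dpep3, a dipeptidase of the testis, read 16.2 on KO 4, 23.9 on KO 22 and 68.5 on wild type. Wild type stood above both, but the knockout arrays were unequal, at -2.28 and -1.57. The mean was -1.92 ± 0.37, or 3.80-fold lower (limma adjusted p = 0.117, and 0.0164 with the trend). Its spot lay within 2 rows and 2 columns of 2 spots that were bright on wild type alone (at least 4-fold above both other arrays), which held for none of the other 4 members at 2-fold. In all, 6 member probes had such a spot near them, those of Prdm1, Dmrtb1 and Syce2 among them. The part of this in the Dpep3 value was not tested.

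Slc25a31, the ADP/ATP carrier of sperm mitochondria, read 33.5, 28.7 and 67.8. Both knockout arrays were lower by similar amounts, -1.22 and -1.29, with a mean of -1.25 ± 0.09 or 2.38-fold (limma adjusted p = 0.0855, and 0.0133 with the trend). With normexp, the difference was -0.52 for Slc25a31 and -0.78 for Dpep3. The size of both thus depends on how background is handled, and on the normexp offset of 50. Tex101, a germ cell surface glycoprotein, read 140.7, 122.5 and 199.4 (-0.73 ± 0.09, limma adjusted p = 0.101, and 0.015 with the trend). Tex14, needed for bridges between germ cells, read 576.0, 505.4 and 604.5 (-0.29 ± 0.09), and Stk31, a kinase-like testis protein, read 181.1, 169.5 and 158.0 (0.02 ± 0.09).

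**Figure D2:**
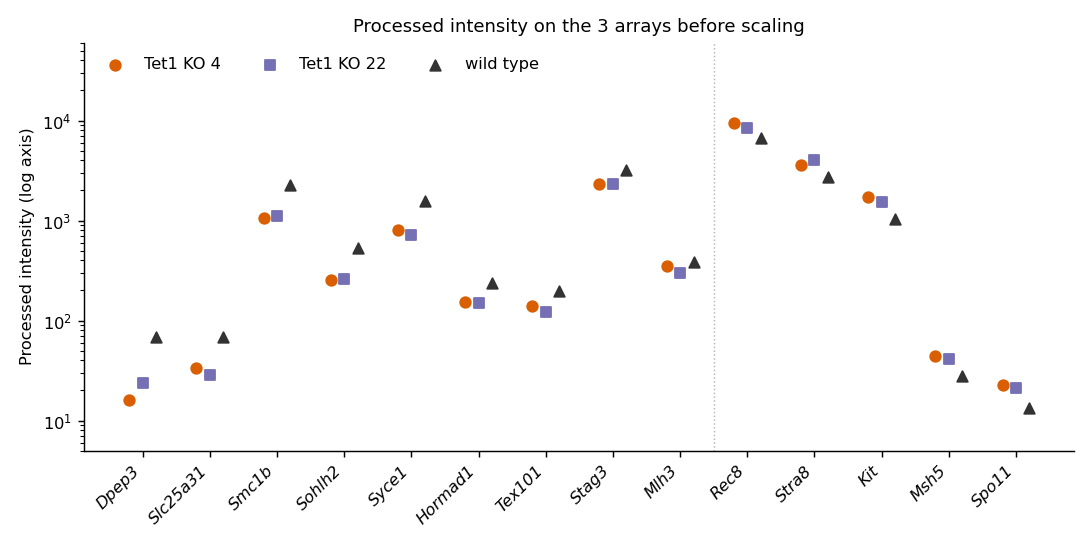
Processed intensity before scaling (log axis) of 14 members on KO 4 (circle), KO 22 (square) and wild type (triangle), with members lower in the knockout arrays left of the dotted line and higher members right of it. In all 14 the wild type array lies on 1 side of both knockout arrays, as for Smc1b at 1063 and 1102 against 2288. The 14 are a selection split by direction, so this follows from the choice. Brdt, Dnd1, Stk31 and Tex15, whose scaled knockout values do not lie on the same side of wild type, are not drawn. Levels of different genes come from different probes and are not comparable.

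**Figure D3:**
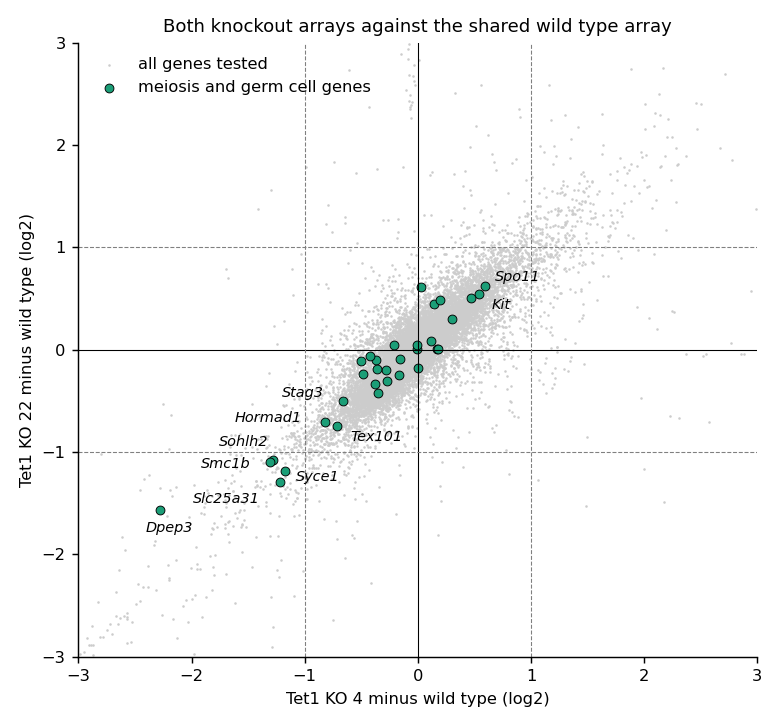
Difference from wild type on KO 4 (horizontal, log2) against KO 22 (vertical, log2) for all 17709 tested genes (grey) and the 33 members (green); both axes share the wild type array, and 97 genes beyond 3 on an axis are not drawn. The 5 members at least 2-fold lower lie in the lower left corner beyond both dashed lines.

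The knockout arrays gave similar values for most members. The SD over genes of the difference between KO 4 and KO 22 was 0.21 for the members and 0.33 for all genes. Dpep3 and Sycp2 were the only members whose knockout arrays differed by more than 0.5.

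Some members could be read on more than 1 probe. In 8 members 2 probes were above background on all arrays, and the gap between their mean differences ran from 0.02 (Zfp37) to 0.53 (Msh5). Hormad1 was lower on both of its probes, by -0.77 and -0.72, and Mlh3 by -0.38 and -0.20. Rec8 was higher on both, by 0.30 and 0.11. Msh5 was 0.49 on the probe used and -0.04 on the other, so its direction rests on 1 probe. A second Brdt probe was above background on wild type alone, at 17.6 against 6.88 on KO 4 and 11.9 on KO 22. This gives an estimate of 1.65-fold lower. With the mean of its probes Brdt differed by -0.58. The estimate takes, for each dim array, the higher of the lowest signal well above background and the probe's own value. It is no strict bound, because the probe's own value of 11.9 on KO 22 was not well above background. The second Spo11 probe was not well above background on any array.

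**Figure D4:**
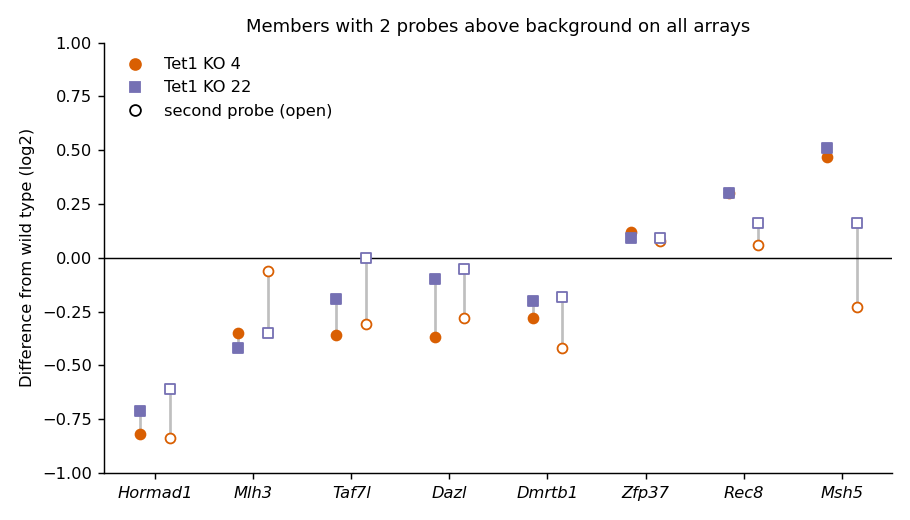
Difference from wild type (log2) for the 8 members with 2 probes above background on all arrays; circles are KO 4, squares are KO 22, filled symbols are the probe used and open symbols the second probe. The Hormad1 probes have means of -0.77 and -0.72, while the Msh5 probes lie apart by 0.53 in their means.

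For the 5 members at 2-fold, the probe positions on build mm7 were chromosome 8, 104574085 to 104575006 (Dpep3), chromosome 3, 40491533 to 40491592 (Slc25a31), chromosome 15, 85147084 to 85147143 (Smc1b), chromosome 3, 55338927 to 55338986 (Sohlh2) and chromosome 7, 137194617 to 137194676 (Syce1). The Dpep3 probe covers 922 bases on the genome, against 60 for the others. No annotation of that build was used, so exons and untranslated regions are not named. The windows above are on GRCm38.p6, and positions of the builds must not be set side by side.

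Other genes of the same pathways were read from fixed lists, which were also chosen with earlier results of these data known. Of 28 further meiosis genes, 21 had a probe and 17 were tested: 14 were lower on both knockout arrays (82.4%, against 45.5% of all genes) and 3 higher, with a median of -0.23. At least 2-fold lower on both were Rec114 (-1.49 ± 0.23), needed for meiotic breaks, and the telomere attachment genes Terb2 (-1.24 ± 0.16) and Majin (-1.12 ± 0.09). With the intensity trend 5 of the 17 were called lower and 0 higher, against 10.7% and 8.31% of all genes. Hormad2, the relative of Hormad1, differed by -0.91 ± 0.22. limma without the trend called 0 of them, and at an unadjusted p under 0.05 it gave 7 lower and 0 higher, against the 15% and 13.2% of all genes.

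Of 30 further germ cell and gamete genes, 17 were tested, with 8 lower on both arrays and 4 higher (median -0.17). The share lower, 47.1%, is near the 45.5% of all genes. Calls with the intensity trend were 7 lower and 1 higher of the 17, against 10.7% and 8.31% of all genes. At an unadjusted p under 0.05, limma gave 7 lower and 2 higher, against 15% and 13.2%. Fkbp6, a co-chaperone of the germline small RNA pathway, had the largest difference. It read 33.3 and 50.2 on the knockout arrays against 489.0 on wild type (-3.71 ± 0.38, limma adjusted p = 0.0971, and 0.00302 with the trend). Mov10l1, a helicase of that pathway, differed by -0.77 ± 0.12, and Boll, a relative of Dazl, by -0.71 ± 0.09. Ldhc, the sperm lactate dehydrogenase, was higher by 0.83 ± 0.19.

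Of 7 tested genes of germ cell specification, 4 were lower on both arrays (57.1%) and 3 higher, with a median of -0.20. Dppa3, a maternal and germ cell factor that protects DNA methylation patterns, read 16155 on KO 4, 13861 on KO 22 and 6920 on wild type. That is 0.99 ± 0.09 higher (limma adjusted p = 0.0971, and 0.00292 with the trend). Ifitm1 differed by -0.62 ± 0.09, Lin28a by -0.43 ± 0.09 and Ifitm3 by -0.39 ± 0.13.

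Of the 18 repressors of germline genes and DNA methylation enzymes, 14 were lower on both arrays (77.8%, against 45.5% of all genes), with a median of -0.22. The 2 that were higher on both were Pcgf6 (0.12 ± 0.10) and Rnf2 (0.35 ± 0.10, limma adjusted p = 0.156, and 0.0311 with the trend). Apart from Tet1, the largest difference was that of Dnmt3a, a de novo DNA methyltransferase, at 1498 and 1091 against 2572 (-1.13 ± 0.17, limma adjusted p = 0.106, and 0.00661 with the trend). Mga differed by -0.42 ± 0.09 and L3mbtl2 by -0.45 ± 0.10, while E2f6 (-0.13 ± 0.11) and Max (-0.11 ± 0.10) lay nearer to wild type. Markers of testis somatic cells had a median of 0.10, with 5 of 7 tested, led by Insl3 at 0.53 (limma adjusted p = 0.0172 with the trend). Without the trend, limma called 0 genes in each of these lists. With it, 3 of the 7 specification genes were called lower and 1 higher. Of the 18 repressors and methylation enzymes 5 were called lower, Tet1 among them, and 1 higher. Of the 5 testis somatic markers 0 were called lower and 1 higher. The shares of all genes were 10.7% lower and 8.31% higher.

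**Figure D5:**
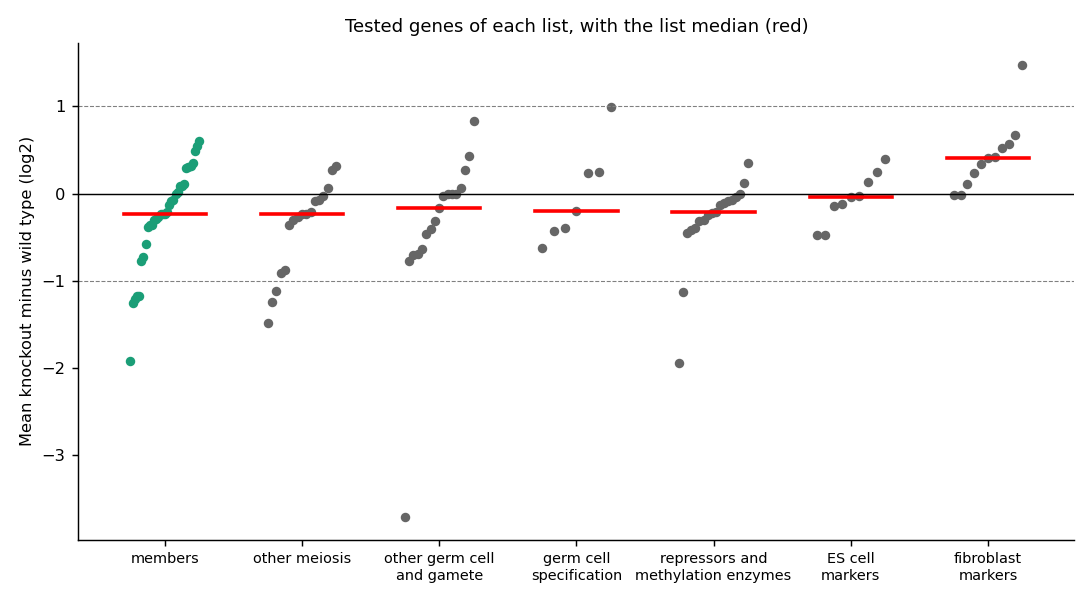
Mean difference of both knockout arrays from wild type (log2, vertical axis) for each tested gene of the members and of 6 other lists, with a red bar at the list median and dashed lines at 2-fold. The medians are -0.24 for members, -0.23 for other meiosis genes and 0.41 for fibroblast markers, and the lowest point is Fkbp6 at -3.71.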

How the data were processed

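The authors deposited scanner files with the processed intensity of each spot, background-subtracted and detrended within its array by Agilent Feature Extraction 10.1.1.1, per the file headers. The series matrix the authors deposited holds log2 values of the same arrays (column medians 5.66, r with the log2 mean signal 0.991 to 0.993). Its direction is that of expression, and whether its background was corrected is unknown. limma is named in the submitters' processing notes, with no version.

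From the intensity, log2 values were taken minus each array's 75th percentile (717.7 on KO 4, 644.9 on KO 22 and 623.7 on wild type). Outlier spots were left out and spots of a probe averaged. Probes well above background on 1 or more arrays were tested, each gene being read on its brightest probe by mean. limma 3.58.1 (R 4.3.3) was fitted over all 17709 genes with 2 knockout arrays against 1 (1 residual degree of freedom), with Benjamini-Hochberg adjustment at 0.05. Only the limma fit was tried on simulated gene values, and not the steps before it. Of 41174 probes, 32719 (79.5%) were matched to a RefSeq gene by accession, symbol or synonym. Of the 52 member probes, 44 were matched by accession and 8 by symbol. All 3 arrays share a slide and a scan, and their number limits the precision.

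Every tested member is described, and up to 4 genes of each other list were chosen by size of difference, with E2f6, Max, Pcgf6, Rnf2 and Eif2s3y added after their values were seen. Members and lists were chosen with earlier results of these data known. Alternatives were quantile scaling, the series matrix, normexp with an offset of 50, 2 filters and the mean of a gene's probes. Further ones were an intensity trend, removal of clustered bright spots, and leaving out each knockout array.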

Additional observations from a re-analysis of the deposited data

How the results depend on the processing

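limma's count of members depended on the setting. It was 0 lower and 0 higher in the reported fit, and 7 lower with the series matrix, 9 lower and 1 higher with normexp, 6 lower with probes above background on all 3 arrays, and 9 lower and 2 higher with the intensity trend. Over all genes the lower and higher calls were 57 and 6 in the reported fit, 494 and 476, 1856 and 1355, 411 and 500, and 1900 and 1472 in those settings, and 0 and 0 of 27654 genes with no filter. Without clustered bright spots they were 21 and 2. Members at least 2-fold lower numbered 2 with normexp and 4 with the series matrix, against 5, while the share of all genes was 0.294% and 1.02%, against 1.56%. The normexp offset of 50 by itself shrinks the differences of dim probes. The median difference ran from -0.27 to -0.11 when 1 knockout array was left out, with -0.11 without KO 4. The 328 member values under alternatives include those with 1 array left out, which have no test and could only keep or change direction. With the intensity trend, the 2 filters and removal of clustered bright spots, each member tested kept its reported difference. Those values therefore could not change direction. Of the 328, 34 passed the threshold anew, 284 kept direction without doing so, and 10 changed direction, in 7 members. These were Nanos3 -0.00, Sycp2 -0.01 and Sycp1 -0.03 with normexp, and Dnd1 at 0.02 with quantile scaling, 0.08 with the series matrix, 0.05 with normexp and -0.01 to 0.01 with 1 array left out. With 1 array left out, Tex15 ran from -0.18 to 0.00, Brdt from -0.21 to 0.05 and Stk31 from -0.01 to 0.05. The cause was not tested. Leaving out 1 knockout array leaves 1 against 1, so those are values with no test. No paired analysis was possible because wild type has 1 array and the groups share no replicate number. Signal over background limits the dim members: the lowest processed intensity well above background was 9.75 to 11.28, and Dpep3 read 16.2 and 23.9 on the knockout arrays.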
